A study of Mus musculus with 2 samples.

Results

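The lysine demethylase gene Kdm2b and the long non-coding gene A930024E05Rik lie head to head on mouse chromosome 5. They were compared between a normal and a treated culture of the NE4C line, a neural stem cell line established from the brain vesicles of p53-deficient mouse embryos, an origin that both cultures share. These are 2 of the 16803 genes in the deposited table, found by their symbols. The pair was picked because the fall of the non-coding gene was among the largest in this same comparison, so its own values are given as a description and without a test. The control library was made from NE4C grown normally, and the HTL treatment library from NE4C exposed to homocysteine thiolactone (HTL), a reactive ring form of homocysteine that attaches to lysine residues of proteins. The labels give neither dose nor duration of the exposure, and no genetic change separates the cultures. Each condition had 1 library, so nothing below has a replicate check, and every interval covers counting error between these 2 libraries only.

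KDM2B binds unmethylated CpG dinucleotides through its CXXC zinc finger and brings a polycomb complex, the variant PRC1.1 with PCGF1 and BCOR, to CpG-rich promoters, where RING1 and RNF2 attach ubiquitin to histone H2A. Through its JmjC domain it also removes methyl groups from lysine 36 of histone H3 (H3K36), and a shorter form that starts at an internal promoter lacks that domain. In the deposited table Kdm2b is annotated, among other processes, to neural tube closure. A930024E05Rik is listed there without any annotated process.

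The non-coding gene has been called antisense to Kdm2b, but the annotation places the genes mainly head to head. In GENCODE on NCBIM37, Kdm2b (gene ID 30841) spans chr5:123320677-123465089 on the minus strand with 23 annotated transcripts, of which 9 are protein-coding. A930024E05Rik (gene ID 109202) spans chr5:123439363-123448354 on the plus strand, with 1 transcript of 3 exons and 1896 exonic bases. Of the Kdm2b transcripts, 6 start within 1000 bases upstream of the non-coding gene and run away from it. The nearest starts 48 bases away (Kdm2b-003), and the full-length Kdm2b-001 starts 255 bases away. Only Kdm2b-002 and Kdm2b-007 have a first exon that lies within exon 1 of A930024E05Rik, and these cover 199 bases, 10.5% of its exonic length. A further transcript, Kdm2b-020, spans the non-coding gene without sharing exonic bases. The sources do not say if strand entered the counting or which annotation was used. Reads from the bases shared in GENCODE cannot be assigned to one gene or the other. In RefSeq the nearest start of Kdm2b lies outside A930024E05Rik, 255 bases away. At its far end the Kdm2b annotation also overlaps the first exon of Orai1 on the opposite strand.

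**Figure D1:**
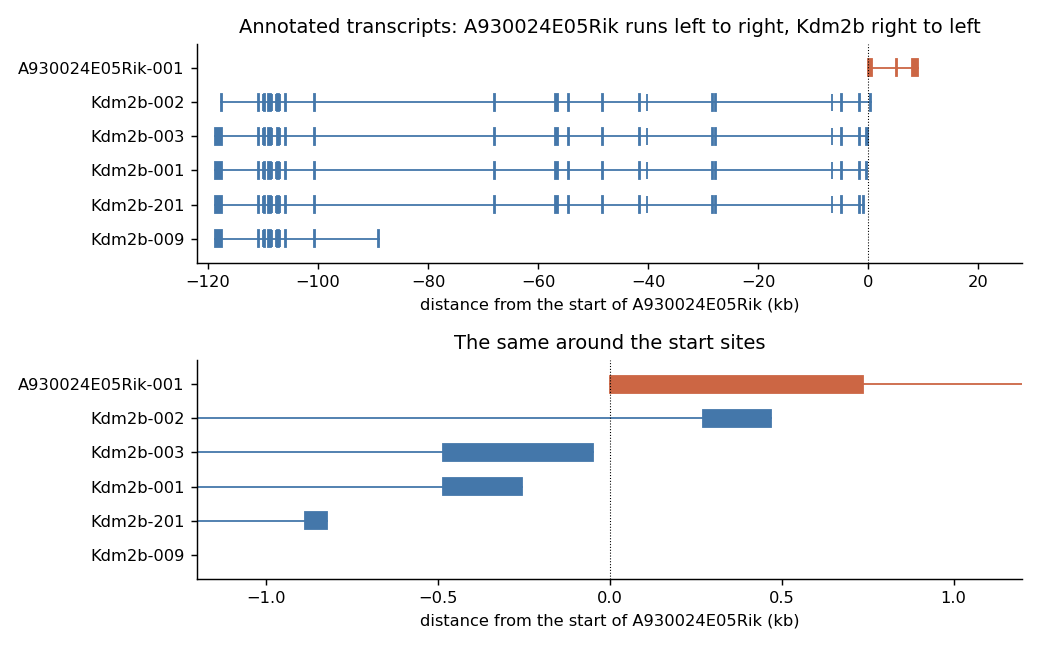
Annotated exons (boxes) and introns (lines) of A930024E05Rik and 5 protein-coding Kdm2b transcripts, plotted by distance in kb from the start of A930024E05Rik; the lower panel enlarges the start sites. Kdm2b-003 and Kdm2b-001 start 48 and 255 bases to the left of the dotted line, Kdm2b-002 starts 469 bases inside the non-coding gene, and the short Kdm2b-009 starts far to the left, within the body of the gene.

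The sequence before the start of A930024E05Rik is shown because most of it also lies in a promoter window of Kdm2b on the other strand. The RefSeq promoter window of A930024E05Rik (GRCm38.p6, chr5:122989104-122989403, plus strand, 250 bases before to 50 after the start) shares 246 of its 300 bases with the window of the nearest RefSeq start of Kdm2b, which itself lies 255 bases from the start of A930024E05Rik and just outside the window printed. The window has 1 exact match on NCBIM37, at chr5:123439113-123439412. The second window belongs to the internal start of the short Kdm2b form (GRCm38.p6, chr5:122900301-122900600, minus strand), 89004 bases from the start of A930024E05Rik. It is shown for contrast, since it shares no base with that of the non-coding gene. Capitals mark each CpG, the dinucleotide that the CXXC finger binds.
A930024E05Rik start: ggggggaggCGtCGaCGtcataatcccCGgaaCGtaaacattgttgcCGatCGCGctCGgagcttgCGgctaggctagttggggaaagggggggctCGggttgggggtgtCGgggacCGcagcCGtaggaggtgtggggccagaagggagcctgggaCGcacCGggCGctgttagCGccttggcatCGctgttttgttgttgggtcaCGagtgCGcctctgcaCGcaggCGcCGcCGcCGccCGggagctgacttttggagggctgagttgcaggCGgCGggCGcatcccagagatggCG
Kdm2b short form start: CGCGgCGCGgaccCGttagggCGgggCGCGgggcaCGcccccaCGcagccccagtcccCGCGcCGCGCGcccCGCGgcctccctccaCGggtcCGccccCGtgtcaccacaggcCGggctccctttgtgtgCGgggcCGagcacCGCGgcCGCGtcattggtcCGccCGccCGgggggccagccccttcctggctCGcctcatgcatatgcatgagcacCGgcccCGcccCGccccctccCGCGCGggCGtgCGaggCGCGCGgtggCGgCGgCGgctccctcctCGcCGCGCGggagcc

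The A930024E05Rik window holds 31 CpG and 67.3% G and C, and the window of the short form holds 49 CpG and 81.7%. Over 32851 RefSeq windows of this length the median was 7 CpG, and 10.6% and 1.02% of them hold at least as many as these windows. The letters TGACGTC, which lack the last base of the cyclic AMP response element TGACGTCA, occur once in the A930024E05Rik window, on the minus strand from position 14. They occur in 3.21% of all windows on either strand. Other letters were searched on both strands and have no match in the A930024E05Rik window. The full element TGACGTCA is held by 1.79% of all windows. The E-box CACGTG is held by 7.15% and its last letters ACGTG by 19.6%. The amino acid response letters TGATGNAA are held by 3.97%. The letters CCAAT are held by 37.4%, and the window of the short form has 1 match. The letters TATAAA are held by 13.6%. The GC box GGGCGG has 1 match in the A930024E05Rik window and 6 in the window of the short form, and 35.7% of all windows hold it.

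For Kdm2b, 2308 reads were counted without HTL and 1023 with it. Scaled to the library totals as CPM (each library brought to the same total), its level was 223 (95% exact Poisson interval 214 to 232) without HTL and 112 (106 to 119) with it. The level was 1.98-fold lower after HTL (1.84 to 2.14), a log2 ratio of -0.99 (95% exact Clopper-Pearson interval -1.10 to -0.88), just short of the study's cutoff of -1. The deposited FPKM, which corrects for transcript length, went from 42.7 to 21.5. At those FPKM levels Kdm2b stood above 89.5% of the listed genes in the control and above 81.0% after HTL.

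For A930024E05Rik, 270 reads were counted without HTL and 23 with it. This was a CPM of 26.1 (23.1 to 29.4) against 2.53 (1.60 to 3.79). The level was 10.1-fold lower after HTL (6.74 to 16.6), a log2 ratio of -3.34 (-4.05 to -2.75). Its FPKM was 13.7 and 1.32, above 72.5% and 37.5% of the genes. The non-coding gene thus stood in the upper part of the FPKM range without HTL and in the lower part with it, while Kdm2b stood in the upper part in both libraries.

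**Figure D2:**
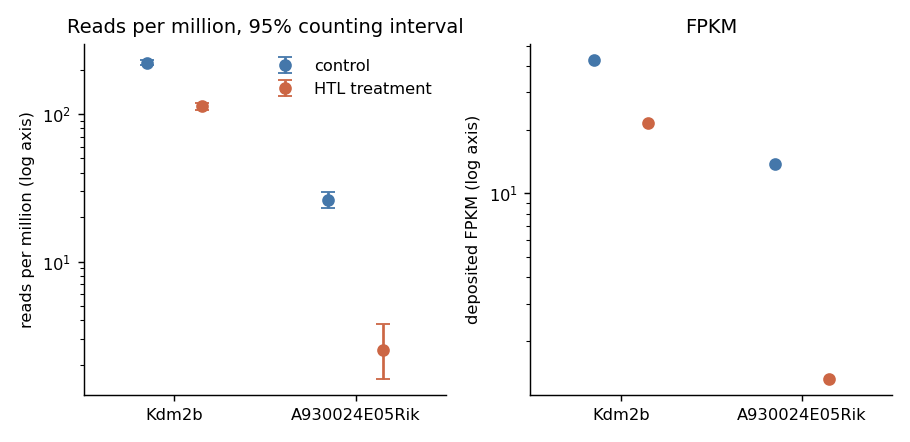
CPM with 95% exact Poisson intervals (left) and deposited FPKM (right) of both genes in the control and HTL treatment libraries, 1 library each, on log axes. Kdm2b went from a CPM of 223 to 112 and A930024E05Rik from 26.1 to 2.53.

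The balance between the genes differed between the libraries. A930024E05Rik supplied 10.5% of the reads of the pair without HTL (exact binomial interval 9.32 to 11.7) and 2.20% with HTL (1.40 to 3.28). Per length, Kdm2b was 3.12 times as abundant as the non-coding gene without HTL and 16.3 times with it. The log2 ratio of A930024E05Rik minus that of Kdm2b was -2.35 (exact conditional interval -3.07 to -1.75), on which the scaling of the libraries has no bearing. With the reads of both genes summed as if 1 locus, 2578 and 1046 reads gave a log2 ratio of -1.12 (-1.22 to -1.01), which was short of -1 under TMM (-0.99) and the median of ratios (-0.98).

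Across the whole table, 13442 genes reached 10 reads when the libraries were added up, and these are the genes called tested here. Of these 12.2% had a log2 ratio of -1 or lower and 4.72% one of 1 or higher. These were 1645 and 635 genes, which became 1288 and 860 under TMM, 1257 and 866 under the median of ratios, and 1372 and 786 under upper quartile scaling. A930024E05Rik is past -1 and Kdm2b is not, and since the pair was chosen on this comparison nothing is read from that count. The median gene stood at -0.14, and relative to it Kdm2b was at -0.85 and A930024E05Rik at -3.20. Of the genes tested 1680 were lower than Kdm2b and 57 lower than A930024E05Rik. In that order A930024E05Rik stood between Bbs10 (51 and 4 reads, log2 ratio -3.34) and Slc16a4 (39 and 3 reads, -3.33). Its place restates how it was chosen.

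Log2 ratios in these libraries were lower for longer transcripts. Kdm2b (5162 bases) belonged to bin 9 of 10 by length, whose median was -0.28, and A930024E05Rik (1907 bases) to bin 3, whose median was -0.049. Among the 60 genes of the same bin whose control FPKM differed from that of Kdm2b by a ratio of at most 5 to 4, the median was -0.34 and 5 were as low as Kdm2b or lower. Among the 126 such genes for A930024E05Rik the median was 0.042. The part of transcript length in either value was not tested.

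**Figure D3:**
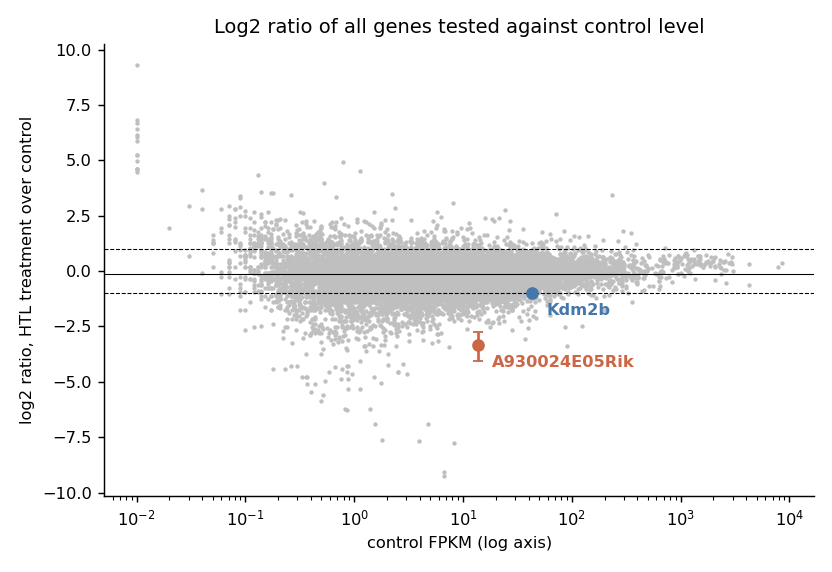
Log2 ratio of HTL treatment over control against control FPKM (log axis) for the 13442 genes tested, with 95% counting intervals for the pair; dashed lines mark -1 and 1, the solid line the median. Kdm2b at -0.99 and A930024E05Rik at -3.34 are marked, the latter chosen for its low ratio.

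The genes nearest in log2 ratio, among those whose control FPKM met the same limit, were sought over the 2 libraries. Of 802 such genes for Kdm2b the nearest were D17H6S56E-5 (1576 and 701 reads, log2 ratio -0.98), D2Wsu81e (695 and 306 reads, -0.997) and the splicing factor gene Isy1 (802 and 358 reads, -0.98). Of 1363 such genes for A930024E05Rik the nearest was Mettl20, with 189 and 27 reads and a log2 ratio of -2.60. Ankrd44 (1100 and 193 reads, -2.32) and Pdk1 (885 and 159 reads, -2.29), a kinase that restrains pyruvate dehydrogenase, followed it.

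Within 500 kb of Kdm2b, 20 other annotated genes were tested, with a median log2 ratio of -0.043 that was above 0 under each other scaling run (0.050 to 0.093). Of these 20, 3 were at -1 or lower and 2 at 1 or higher, few genes to set against 12.2% and 4.72% of all genes, and nothing particular to the neighbours is read from them. Rnf34, a ubiquitin ligase gene 1.72 kb beyond the 3' end of Kdm2b, counted 503 and 813 reads, a ratio on the log2 scale of 0.88 (0.72 to 1.04) that passed 1 under TMM and median of ratios scaling. Orai1, the store-operated calcium channel gene whose first exon Kdm2b overlaps at its other end, counted 36 and 37 reads (log2 ratio 0.22, -0.48 to 0.93). Anapc5, a subunit of the anaphase-promoting complex, counted 2189 and 1858 reads (log2 ratio -0.051, -0.14 to 0.039).

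Camkk2, a kinase gene 91.3 kb away, was the lowest of the 20, with 126 and 37 reads (log2 ratio -1.57, -2.15 to -1.04). Tmem120b stood at 0.45 (-0.066 to 0.98) and Rhof at 0.39 (-0.41 to 1.21), and their exons overlap each other on opposite strands. Farther out, the ciliary transport gene Ift81 was at -1.41 and Bcl7a, a BAF remodelling subunit, at -1.05, short of the cutoff under each other scaling. Atp2a2, the calcium pump of the endoplasmic reticulum, was at 1.03 with 4344 and 7803 reads. P2rx7 was at 1.11 on 5 and 10 reads. 

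Other head-to-head pairs of a protein-coding gene and a gene typed as non-coding in the NCBIM37 annotation were compared in the same way, a list added after the annotation of the locus was seen. That annotation types some genes as non-coding that RefSeq lists as protein-coding, Ankzf1 and Usp35 among them. In 98 such pairs with starts within 1000 bases, this one among them, the non-coding gene had a median log2 ratio of -0.32 and the coding gene one of -0.052. The non-coding gene was at -1 or lower in 24 pairs (24.5%, 23 distinct genes), against 12.2% of all genes. In 3 pairs it was at 1 or higher, against 4.72% of all genes. Without the genes that RefSeq lists as protein-coding, it was at -1 or lower in 23 of 92 pairs, with a median of -0.34. Of all 286 non-coding genes tested, paired or not, 24.5% were at -1 or lower as well and 5.94% at 1 or higher, with a median of -0.37. In 62 of the 98 pairs the non-coding gene was the lower of the pair.

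The gap within the Kdm2b pair was exceeded in 4 pairs, named after their values were seen. These were 0610040B10Rik beside Zdhhc4 (13 and 0 reads), C630043F03Rik beside Tle1 (54 and 5 reads), 1110019D14Rik beside 2610001J05Rik (40 and 5 reads) and Gm6297 beside Dnaja1 (10 and 1 reads). Since A930024E05Rik was chosen for its low ratio, nothing is read from its place among the pairs. In 31 pairs the gene typed as non-coding had at least 100 reads over both libraries. There its median log2 ratio was -0.055, and that of the coding gene was 0.094. The non-coding gene was at -1 or lower in 5 of these pairs (16.1%), against 8.57% of the 10062 genes with as many reads. These 5 include A930024E05Rik, chosen for its low ratio, and Ankzf1, so nothing is read from that share. Those at -1 or lower were, besides A930024E05Rik, 9530051G07Rik beside Mageh1 (920 and 228 reads, -1.83), Tug1 beside Morc2a (1384 and 420 reads, -1.53), 2610507I01Rik beside Mrpl55 (167 and 65 reads, -1.17) and Ankzf1, protein-coding in RefSeq, beside Atg9a (308 and 128 reads, -1.08). Snhg1 beside Slc3a2 (1792 and 3634 reads, 1.21) and Gm15441 beside Txnip (9 and 132 reads, 3.98) were higher, with their partners at 1.55 and 4.91. When pairs were chosen by exons that overlap on opposite strands, 128 pairs had a median non-coding log2 ratio of -0.28, and 5 had a wider gap than Kdm2b and A930024E05Rik.

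**Figure D4:**
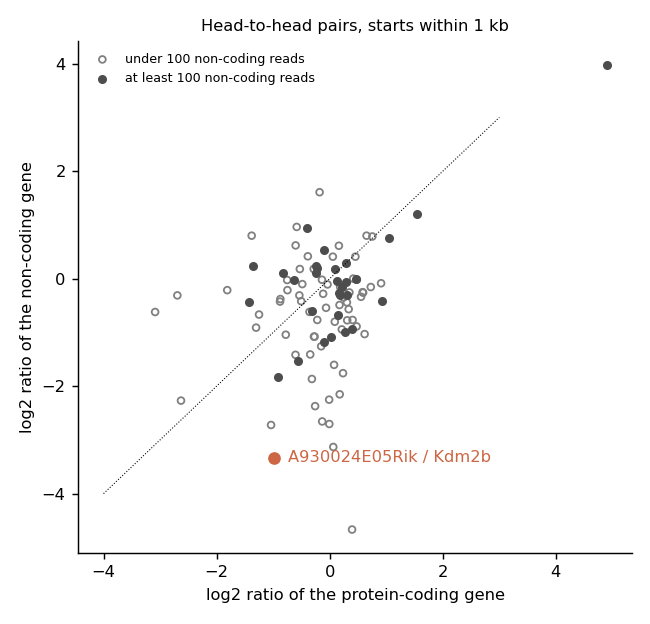
Log2 ratio of the non-coding gene against that of its head-to-head protein-coding partner for 98 pairs with starts within 1 kb; filled points have at least 100 non-coding reads, and the dotted line marks equal ratios. The pair of A930024E05Rik and Kdm2b (-3.34 and -0.99) is marked, and it was chosen for its low ratio.

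The partners of KDM2B in PRC1.1 lay on both sides of 0. Of 9 genes, all tested, 1 was at -1 or lower and 0 at 1 or higher, a share near the 12.2% and 4.72% of all genes at so few members, with a median of -0.17 against -0.14 for all genes. Bcor, the scaffold of the complex, was higher after HTL, at 1501 and 1895 reads (log2 ratio 0.52, 0.42 to 0.62). Rnf2, the main ubiquitin ligase, had 735 and 1006 reads (0.64, 0.50 to 0.78), and Rybp, which stimulates it, had 1917 and 2428 reads (0.53, 0.44 to 0.61). Ring1, the other ligase, had 66 and 23 reads (log2 ratio -1.32, -2.09 to -0.63). Pcgf1, which tethers KDM2B to the complex, had 84 and 40 reads (-0.88, -1.47 to -0.33). Usp7, a deubiquitinase, had the most reads, 3601 and 2310 (-0.45), and Skp1a, which binds the F-box, had 2277 and 1783 (-0.17). Yaf2 stood at 0.27 and Bcorl1 at -0.26.

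Kdm2a, the paralog with the same domains, was lower too. Its 2309 and 1236 reads gave -0.72 on the log2 scale (-0.82 to -0.62), and the log2 ratio of Kdm2b minus that of Kdm2a was -0.27 (exact conditional interval -0.42 to -0.12). Of 6 other genes listed as H3K36 demethylases or reported to be, Kdm2a included, Kdm4d is not in the table. The median of the 5 tested was -0.72, the value of Kdm2a itself, against -0.14 for all genes. Kdm4b was at -1.06 with 493 and 207 reads, short of the cutoff under each other scaling, and Kdm4a at 0.39 with 1119 and 1292 reads. Kdm8 stood at -0.84 and Kdm4c at -0.23.

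Among 7 methyltransferases that act on H3K36 or are reported to, the median was -0.20, with 1 at -1 or lower, about the share of all genes (12.2%). This was Ash1l, with 4702 and 706 reads (log2 ratio -2.55, -2.67 to -2.44), the most reads in the control library of the 7. Nsd1 was at -0.73, and Setd2, which makes the trimethyl mark, at 0.0058 with 3066 and 2707 reads. Whsc1, the highest, was at 0.092 with 2859 and 2679 reads.

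The CXXC zinc finger genes, which share the CpG-binding fold of KDM2B, had a median of -0.57 over 11 genes. All 11 were below 0, but under each other scaling run 9 were below 0 and 2 above. Cxxc4, an inhibitor of Wnt signalling, had 87 and 7 reads (log2 ratio -3.37, -4.81 to -2.35). Tet1, which oxidizes methylated cytosine, had 2162 and 785 reads (-1.28, -1.40 to -1.16). Kmt2b, an H3K4 methyltransferase, was at -1.02 with 1590 and 691 reads, short of the cutoff under each other scaling. Dnmt1, the maintenance DNA methyltransferase and the most abundant by reads, had 5464 and 3112 (-0.63), and Mbd1, the highest of the list, 128 and 107 (-0.073). Of these 11 genes 3 were at -1 or lower, against 12.2% of all genes, and the part of transcript length was not tested. Of the list Kdm2a, Kmt2a, Kmt2b, Tet1 and Tet3 have transcripts in bin 10 by length, whose median was -0.38. Cxxc4, the lowest, and Dnmt1 have transcripts in bin 9, whose median was -0.28. Kmt2a was at -0.57 and Tet3 at -0.31.

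**Figure D5:**
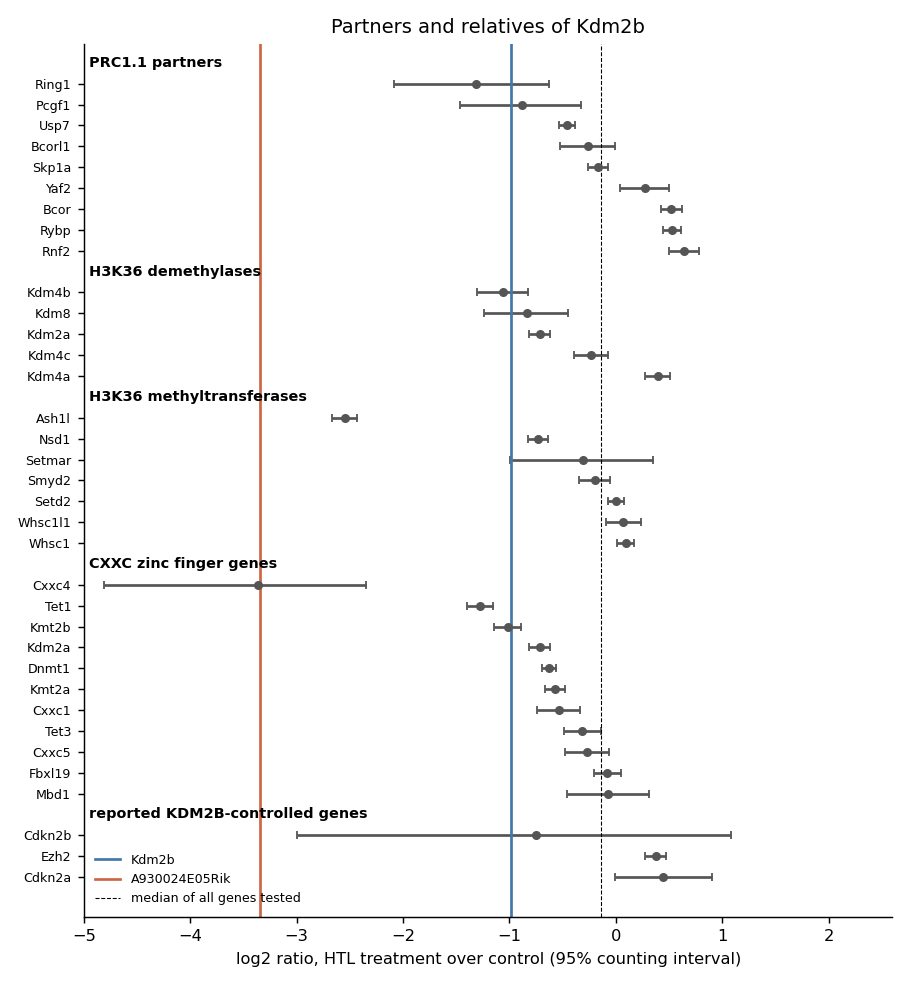
Log2 ratio of HTL treatment over control with 95% counting intervals for the tested members of 5 gene lists around Kdm2b; vertical lines mark Kdm2b (-0.99), A930024E05Rik (-3.34) and the median of all genes tested (-0.14, dashed). Bcor, Rybp and Rnf2 lie right of the median line, and Ash1l and Cxxc4 far to its left.

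KDM2B belongs to the F-box and leucine-rich repeat proteins, the substrate receptors of SCF ubiquitin ligases. Of 18 other such genes, listed by symbols that start with Fbxl, 16 were tested. Their median was -0.049, which was above 0 under each other scaling. The list by symbol leaves out the paralog Kdm2a, at -0.72. Fbxl22 was the 1 gene of the 16 past the cutoff in either direction, where 12.2% of all genes were lower and 4.72% higher, with 44 and 17 reads (log2 ratio -1.16, -2.09 to -0.35), and its exons overlap Herc1 on the opposite strand. Fbxl19, which also has a CXXC finger, had the most reads, 1145 and 953 (-0.079). Fbxl15 was the highest at 0.69 with 23 and 33 reads (-0.11 to 1.54), and its exons overlap Cuedc2 on the opposite strand.

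Only 3 of the genes reported to be controlled by KDM2B were listed here. Cdkn2a, a cell cycle inhibitor locus repressed by KDM2B, had 76 and 91 reads (log2 ratio 0.44, -0.010 to 0.90), an interval that includes 0. Cdkn2b, the inhibitor gene beside it, had 8 and 4 reads (-0.75, -2.997 to 1.09). Ezh2, the methyltransferase of polycomb complex 2, had 1485 and 1692 reads (log2 ratio 0.37, 0.27 to 0.48). Of the 3, 0 passed the cutoff in either direction, and with 12.2% of all genes past it below and 4.72% above nothing is read from that count.

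The libraries held 10350668 and 9102073 estimated reads, with 9.17% and 9.07% of them in the 10 most abundant genes. All 8 neural stem cell markers listed were in the table, with a summed CPM of 500 without HTL and 383 with it. Their median log2 ratio was -0.059 over the 7 tested, and Fabp7 had 2 reads in each library. Sox1 (-1.78), Sox2 (-1.46) and Vim (-1.01) were at -1 or lower, 3 of the 7 against 12.2% of all genes, with Vim short of it under each other scaling. Prom1 was higher at 0.51 (0.33 to 0.69), with Pax6 at 0.12, Msi1 at 0.033 and Nes at -0.059. The 6 neuron markers summed to a CPM of 87.0 and 108, with Tubb3 at 0.60, Stmn2 at 0.57 and Rbfox3 at 0.34, and with Dcx at -1.40, Map2 at -0.60 and Syt1 at -0.11. The 4 oligodendrocyte markers summed to 18.6 and 21.0, nearly all of it Mbp, and the 4 fibroblast markers to 8.21 and 9.89, with Col1a1 and Col1a2 both at 1.21 on 12 and 25 reads, Pdgfra at -0.54 on 45 and 27, and Dcn at -0.11 on 16 and 13. The 2 astrocyte markers in the table summed to a CPM of 2.22 and 6.15, with Aldh1l1 higher after HTL on 21 and 56 reads (log2 ratio 1.58, 0.85 to 2.40) and Gfap at 2 and 0 reads. Microglia markers summed to 2.13 and 2.42, with Aif1 at 3 and 0 reads, and endothelial markers to 3.77 and 2.53. In such bulk RNA, fewer cells of a type and less RNA per cell cannot be told apart, and the part of these markers in the values of the pair was not tested.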

How the data were processed

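RNA of 1 control and 1 HTL treatment culture was sequenced on BGISEQ-500, and each library was assigned to its condition by its title. The authors aligned the reads and used RSEM for gene-level estimates; the submitters' processing notes name mm9, and the mapper, annotation, versions and use of strand are not given in the sources used here. The authors deposited 1 table with estimated counts that are not normalized (21.8% and 20.2% of values fractional), FPKM scaled to length and library size (lowest value 0.01; the methods call the unit RPKM, the table header FPKM) and transcript length in bases, an other kind of value. Their log2 ratio, p-value and FDR columns were not used.

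Estimated counts were rounded (10350665 and 9102076 reads). Genes reaching 10 reads over the 2 libraries were kept (13442; 3361 left out), 0.5 read scaled to the totals was added, and a log2 ratio of 1 in either direction was the cutoff, as in the study but without its FDR. No test was made, since edgeR and DESeq2 cannot estimate spread from 1 library per condition; they served only for scaling. Intervals are 95% exact (scipy 1.17.1), treat each read as independent and cover counting error only. Reads lacking molecular identifiers may repeat a molecule, so the intervals may be too narrow even for that error. The code was checked on simulated counts. Positions come from GENCODE on NCBIM37, the assembly behind mm9, and promoter windows from RefSeq (GRCm38.p6), matched by symbol for both genes.

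The members and lists were chosen with earlier results of these data known. Named were the pair; list members past the cutoff, with the most reads or at either end of the range; tested genes within 100 kb; and the 3 genes nearest each of the pair. Others were named after their values were seen. Alternatives were edgeR 4.0.16 TMM and upper quartile scaling, DESeq2 1.42.0 median of ratios, 5 reads added, FPKM ratios, other read filters and the pair summed.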

Additional observations from a re-analysis of the deposited data

How the results depend on the processing

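No paired analysis was possible because there was a single library of either kind, which also meant that none could be left out. Neither gene of the pair changed direction under any alternative run. Scaling by TMM, by the median of ratios and by the upper quartile shifted log2 ratios up by 0.13, 0.14 and 0.093. Kdm2b was at -0.86 under TMM and -0.85 under the median of ratios, outside its counting interval, and at -1.12 with both genes summed, because the non-coding reads were added. With the ratio of FPKM + 1, which shrinks ratios of low values, A930024E05Rik was at -2.66 and its difference from Kdm2b at -1.70. The 1645 genes at -1 or lower became 3114 with at least 1 read and 862 with a mean of at least 50 reads, and the 635 at 1 or higher became 1427 and 295, as those filters admit more or fewer genes. Under TMM there were 1288 and 860, under the median of ratios 1257 and 866, and under the upper quartile 1372 and 786, so the share of lower calls depends on the scaling. The median of the CXXC genes was -0.44 under TMM and -0.43 under the median of ratios. The sum of both genes was at -0.99 under TMM and -0.98 under the median of ratios, alternatives added after seeing the data. The other 50 of 63 values kept within their counting interval or within 1.5 times the count. Head-to-head pairs within 5000 bases, an alternative chosen after seeing the data, gave 113 pairs, in 26 of which the non-coding gene was at -1 or lower (25 distinct genes). Leaving out genes protein-coding in RefSeq, also chosen after seeing the data, gave 92 and 23 pairs. With 23 reads in the HTL treatment library, the ratio of A930024E05Rik carries the wider interval of the pair, and the spread between cultures cannot be measured here.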
